A study of Mus musculus with 24 samples.

Results

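The livers compared here came from adult and infant B6C3F1 mice 48 h after irradiation with gamma rays. The comparison held 8 of the 24 arrays of the series, namely the 4 whose titles name 7-week-old mice at 48 h (2 males and 2 females) and the 4 whose titles name 1-week-old mice at 48 h (2 males and 2 females). All 8 mice had been given 4 Gy, at 0.57 Gy per minute and with 137Cs as the source, at 7 weeks or at 1 week of age. The labels name them as separate animals. The same 2 ages at 0 h, 4 arrays each, were used to ask which gaps between the ages were still present at 48 h and which had narrowed or widened. The protocol mentions sham-irradiated mice, while the labels place the 0 h mice after exposure, so 0 h is only the name of the reference group. No unexposed mice of the later time enter, so 2 days of growth and the time since exposure cannot be told apart. In bulk liver RNA, fewer cells of a type and less RNA per cell cannot be told apart either.

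The rodent liver is a blood-forming organ before birth and for some days after it, and its sinusoids then still hold red-cell precursors, immature granulocytes, megakaryocytes and B-cell precursors. Blood-forming cells are among the most radiosensitive cells of the body and are lost soon after exposure. Over the same weeks hepatocytes slow their division, shut off fetal and imprinted growth genes such as Afp, H19 and Igf2, and acquire adult functions, among them bile acid synthesis, drug metabolism and, from puberty, sex-dependent expression set by the pattern of growth hormone release.

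Each array was a single-colour Agilent array, and a level is the log2 processed signal minus the 75th percentile of its array. An age gap is the adult level minus the infant level, averaged over the sexes, so that a gap of 1 means 2-fold more in adults. The floor of an array is its lowest signal well above background, and values called floored were computed with lower levels raised to it, an alternative chosen after seeing the data. At 48 h the floors ran from -3.80 to -3.18 on the adult arrays and from -4.22 to -3.80 on the infant arrays. Genes below the floor on all 8 arrays therefore get a floored gap towards adults, as for the red-cell genes Rhd and Kel (0.45 each). The tests covered 23115 genes, of which 14951 had a current symbol. Arrays of the same age and sex at 48 h correlated at 0.986 to 0.993, and arrays of different ages at 48 h at 0.926 to 0.940. The 24 arrays lay on 3 slides. At 48 h the only slide with both ages held adult males and infant females, so that slide and sex cannot be told apart there. At 0 h no slide held both ages, with the adults on slide 3 and the infants on slides 1 and 2. Slide and age therefore cannot be told apart at 0 h, and the change of the gap shares this limit. Hepatocyte markers were present as the tissue label says: 0 of the 25 members of the hepatocyte core list were below background on all arrays of either age at 48 h. Of markers of other tissues, the mean level of 6 muscle and adipose genes (12 on the array) ran at 48 h from -4.04 to -3.26 on the infant arrays and from -4.11 to -3.10 on the adult arrays, with 0 of 6 called. At 0 h it ran from -3.975 to 0.507 on the infant arrays and from -3.892 to -2.796 on the adult arrays. The infant arrays of the reference group were thus not all low for these markers. The mean of 5 pancreatic acinar genes ran from -1.35 to -1.09 in infants and from -1.12 to -0.51 in adults, with 3 of 5 called higher and 1 lower in adults. The lower one, Amy2a5, an amylase, read 3.52 to 4.07 in infants and 2.54 to 2.85 in adults, so not all of these markers were low, and their part in the results was not tested.

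The ages remained far apart at 48 h, with fewer genes called than at 0 h in the main fit. At 48 h 13945 of 23115 genes (60.3%) passed an adjusted p of 0.05, 8922 of them (38.6% of the genes tested) higher in adults and 5023 (21.7%) higher in infants. By at least 2-fold, 2130 (9.21%) were higher in adults and 2517 (10.9%) were higher in infants. At 0 h 16357 genes (70.8%) had passed, 10816 (46.8%) higher and 5541 (24.0%) lower in adults, and 4163 (18.0%) and 2929 (12.7%) of these stood 2-fold or more apart. Without the filter on dim probes, 16994 genes passed at 48 h and 16992 at 0 h, of 36759 tested. With the slide as a fixed term, 9210 passed at 48 h and 9594 at 0 h. The change of the gap between the times passed for 4467 genes (19.3%), with 1482 (6.41%) moving towards adults and 2985 (12.9%) towards infants. The 4 adult and 4 infant arrays did not overlap at 48 h for 11186 genes (48.4%). The split between directions depended on the scaling: 64.0% of the called gaps at 48 h were higher in adults, against 49.3% after quantile normalization and 39.9% when the 75th percentile was taken over probes well above background on every array. The median gap of all genes was 0.17, 0.02 and -0.10 (log2) under these scalings, so small gaps carry no firm direction. At 0 h 66.1% of the calls were higher in adults, against 53.1%, 55.5% and 42.1% after quantile normalization, median scaling and the well-above-background percentile. For the change of the gap, 33.2% of the calls moved towards adults, against 44.0%, 74.8% and 57.5% in the same order.

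More of the infant-high than of the adult-high genes still differed at least 2-fold at 48 h. Of the 2929 genes at least 2-fold higher in infants at 0 h, 2519 (86.0%) were still called in that direction at 48 h, and 2055 (70.2%) still stood at least 2-fold apart. Their median gap was -1.77 at 0 h and -1.44 at 48 h. Of the 4163 genes at least 2-fold higher in adults at 0 h, 3388 (81.4%) were still called and 1856 (44.6%) were still at least 2-fold apart, and their median gap was 1.42 at 0 h and 0.94 at 48 h. The gap had narrowed by the test of the change for 743 of the infant-high genes (25.4%) and 1282 of the adult-high genes (30.8%), and had widened for 179 (6.11%) and 33 (0.793%). After quantile normalization, median scaling and with the well-above-background percentile, 67.1%, 64.5% and 68.0% of the infant-high and 45.9%, 54.9% and 51.9% of the adult-high genes still stood 2-fold apart. The narrowed shares had no such order, at 30.2%, 22.9% and 27.7% of the infant-high and 31.0%, 7.34% and 27.1% of the adult-high genes. These classes were cut at 0 h, so some return towards 0 is built into them. The infant-high class also began further from the 2-fold cut, so the shares still 2-fold apart do not compare persistence alone. Grouped by function, the lists that moved most between the times were those of erythroid, B, granulocyte and megakaryocyte cells and of the G2 and M phases. In the lists below the counts of members called are read against the shares of all genes given above.

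**Figure D1:**
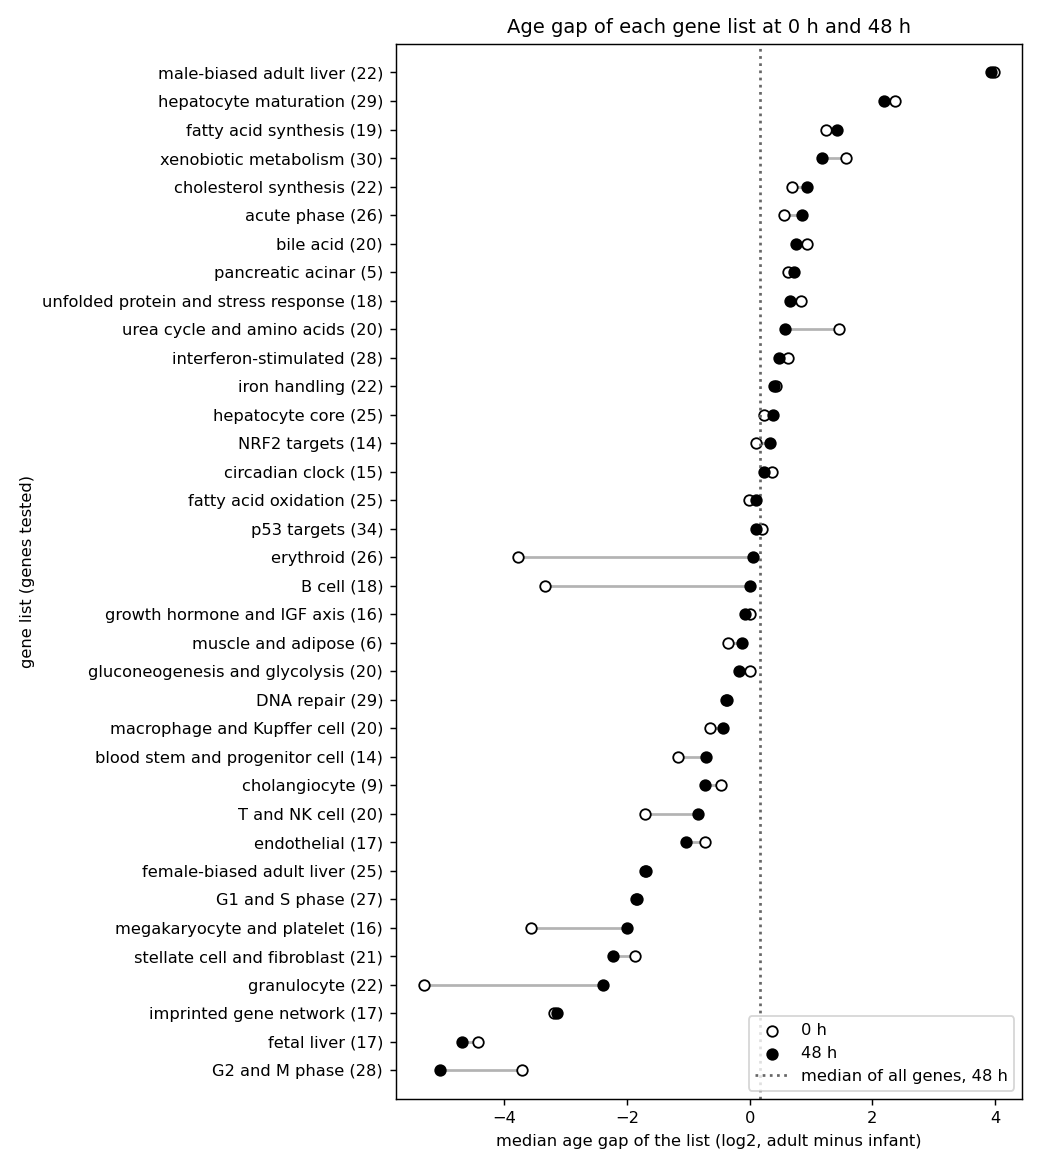
Median age gap (log2, adult minus infant) of each gene list at 0 h (open circles) and 48 h (filled circles), with the number of genes tested in brackets and the median of all genes at 48 h (0.17) as a dotted line. The erythroid list went from -3.77 to 0.06 and the B cell list from -3.33 to 0.01, while the G2 and M phase list went from -3.70 to -5.05 and the fetal liver list read -4.42 and -4.68.

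Most red-cell precursor transcripts no longer separated the ages at 48 h. Of 26 erythroid genes tested (27 on the array), 24 were higher in infants at 0 h and 9 at 48 h, and 3 were higher in adults at 48 h (1 to 10 over the other settings). The change of the gap was towards adults for 20 (9 in the deposited value table, which tests fewer genes) and towards infants for 5 (2 without the sex term). Slc4a1, the band 3 anion exchanger of the red-cell membrane, read 5.04, 4.21, 4.92 and 4.31 on the infant arrays at 0 h, and at 48 h -3.43 and -3.58 in the infant males, -3.18 and -4.11 in the infant females, -4.59 and -4.45 in the adult males and -2.48 and -3.99 in the adult females. It stood well above background on 2 of 4 infant and 1 of 4 adult arrays at 48 h, the ages overlapped, and the gap of -0.30 ± 0.41 (log2, SE, n = 4 per age; adjusted p = 0.55) followed one of -7.01 ± 0.41 at 0 h. The change of its gap was 6.71 ± 0.58 (log2, SE, n = 4 per age; adjusted p = 8.71e-06), or 7.37 ± 0.55 floored.

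Genes of red-cell surface antigens went the same way. Rhd, the Rh antigen protein, read 2.74, 1.79, 2.98 and 2.30 on the infant arrays at 0 h and -5.89, -5.94, -6.05 and -6.30 at 48 h. Kel, the Kell antigen peptidase, read 2.11, 1.26, 1.79 and 1.07 and then -6.06, -6.16, -6.23 and -6.48. Neither was well above background on any array of either age at 48 h, so no fold is given, and both were below background in adults at 0 h as well. The floored changes, which read only the infant level at 0 h and the floors, were 6.64 ± 0.46 and 5.74 ± 0.36 (adjusted p = 2.62e-07 and 9.81e-08). In all, 11 of the 26 genes were below background on all 8 arrays at 48 h, and 12 were so on the 4 infant and 12 on the 4 adult arrays. Tspo2, an erythroid cholesterol-binding protein, was measured on all 8 arrays at -1.29 and -1.26 in the infant males, -1.70 and -1.43 in the infant females, -1.70 and -0.86 in the adult males and -0.96 and -0.68 in the adult females, and the ages overlapped. Its gap was 0.37 ± 0.24 (log2, SE, n = 4 per age; adjusted p = 0.205). Gata1, the erythroid and megakaryocyte transcription factor, remained higher in infants, at -2.54, -2.93, -1.77 and -2.08 against adult arrays that were all below background, which makes it at least 2.28-fold higher (adjusted p = 2.66e-08, from adult readings below background). Its floored gap was -1.19 ± 0.23 (adjusted p = 3.76e-04). By sex it was -1.81 ± 0.33 in females (adjusted p = 3.17e-04) and -0.56 ± 0.33 in males, where it did not pass (adjusted p = 0.156). Icam4, a red-cell adhesion molecule, went past 0: it was not well above background in infants at 48 h and read -1.21, -2.22, -1.90 and -2.01 in adults, at least 4.38-fold higher (adjusted p = 1.91e-04).

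The globin messages did not follow. Hbb-bt, an adult beta globin, had a mean of 8.87 ± 0.23 in infants and 5.83 ± 0.55 in adults at 0 h (log2, SD, n = 4). At 48 h it read 4.08 and 3.98 in the infant males, 4.06 and 3.61 in the infant females, -0.14 and -0.53 in the adult males and -1.47 and -2.30 in the adult females. Every infant array stood above every adult array, and both ages read lower than at 0 h. Its gap was -5.04 ± 0.30 (log2, SE, n = 4 per age; adjusted p = 3.26e-09), a 33.0-fold excess in infants, and it had widened by a change of -2.0 ± 0.42 (log2, SE, n = 4 per age; adjusted p = 0.00565). Hba-a1, an alpha globin, read 6.50 and 6.49 in the infant males, 6.36 and 6.13 in the infant females, 3.09 and 2.70 in the adult males and 1.18 and 0.79 in the adult females, with a gap of -4.43 ± 0.22 (log2, SE, n = 4 per age; adjusted p = 6.74e-10) and a change of -1.78 ± 0.32 (adjusted p = 0.00213). Globin copies are nearly identical in sequence and their probes may share signal, so the globin genes on the list are not separate evidence. The mean level of the whole erythroid list ran from -2.02 to -1.75 on the infant arrays and from -3.18 to -2.31 on the adult arrays at 48 h, against 1.99 to 2.76 and -2.04 to -1.29 at 0 h.

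B-cell precursor transcripts closed the gap as well, and some passed it. Of 18 B-cell genes tested, 15 were higher in infants at 0 h, and at 48 h 6 were higher in infants and 5 in adults, with the change towards adults called for 15. Over the other settings tried, the 6 ranged from 1 to 7, the 5 from 2 to 7 and the 15 from 9 (deposited values, which test fewer genes) to 16. Floored, 2 were higher in infants and 7 in adults, a count to which the higher floors of the adult arrays can add. Vpreb1, part of the surrogate light chain of the pre-B-cell receptor, read 2.58, 2.08, 2.25 and 2.18 in infants at 0 h, and at 48 h -1.71 and -1.79 in the infant males, -2.15 and -2.07 in the infant females, -0.76 and -1.0 in the adult males and -1.25 and -1.18 in the adult females. All 4 adult arrays then stood above all 4 infant arrays. The gap was 0.88 ± 0.12 (log2, SE, n = 4 per age; adjusted p = 1.66e-05) against -3.95 ± 0.12 at 0 h, and it lost its call with the slide as a fixed term. Dntt, the polymerase that adds untemplated bases to antigen receptor genes, read -3.42 and -2.72 in the infant males, -3.65 and -3.60 in the infant females, -1.29 and -0.20 in the adult males and 0.55 and 0.47 in the adult females at 48 h. It was well above background on 3 of 4 infant arrays, and adults were at least 9.37-fold higher. Its gap was 3.23 ± 0.24 (log2, SE, n = 4 per age; adjusted p = 4.6e-08). At 0 h the floored gap of Dntt was -0.55 ± 0.24 and did not pass (adjusted p = 0.0534).

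Vpreb3, another protein of B-cell precursors, did not pass the test at 48 h, with a gap of -0.41 ± 0.20 (log2, SE, n = 4 per age; adjusted p = 0.099) after -4.96 ± 0.20 at 0 h. Igll1, the partner of Vpreb1 in the surrogate light chain, was well above background on 0 of 4 infant and 1 of 4 adult arrays (gap 1.01 ± 0.50, adjusted p = 0.0969). Floored, that gap was 0.78 ± 0.24 and passed (adjusted p = 0.0114). In males the floored gap was 0.55, the same as for Rhd and Kel, which were below background on every array at 48 h. The floored call thus leans on the higher floors of the adult arrays. Cd79b, the signalling chain of the B-cell receptor carried by mature cells too, remained higher in infants at -0.16, -0.48, -0.11 and -0.15 against -2.72, -3.04, -2.87 and -3.59 in adults, where 2 of 4 arrays were well above background. Its gap was -2.83 ± 0.19 (log2, SE, n = 4 per age; adjusted p = 1.37e-08) and the change 1.43 ± 0.27 (adjusted p = 0.00305).

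Granulocyte transcripts narrowed their gap but kept a large one. Of 22 granulocyte genes, 19 were higher in infants at 0 h and 16 at 48 h, and 2 were higher in adults. The change towards adults was called for 17, and the median gap went from -5.30 to -2.38 (-4.99 to -1.68 floored). In the deposited values, which test fewer genes, 9 were called higher in infants and 11 changes were called, and members not tested there lower these counts. Stfa1, a stefin A protease inhibitor of neutrophils, read 7.01, 6.75, 6.84 and 7.17 in infants at 0 h and 3.53, 3.32, 3.82 and 4.02 at 48 h. The adult arrays were all below background at both times, so that infants were at least 146-fold higher at 48 h (adjusted p = 1.58e-10). Ltf, the iron-binding lactoferrin of secondary granules, read 1.48, 0.99, 1.85 and 2.07 in infants at 48 h and was at least 34.7-fold higher there (adjusted p = 4.39e-12). Mpo, the myeloperoxidase of primary granules abundant in immature cells, read 4.71, 3.98, 4.58 and 4.90 in infants at 0 h and -1.26, -1.67, -0.35 and -0.31 at 48 h, at least 6.14-fold above adults (adjusted p = 2.49e-09).

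For these 3 genes the change of the gap, 3.57, 3.59 and 5.25 (adjusted p = 0.00113, 7.76e-06 and 1.72e-06), reads the infant level alone, since adults were below background at both times. The floored changes were 3.49 ± 0.35, 3.50 ± 0.20 and 5.66 ± 0.25. Stefin A genes are near-identical copies, and their probes may read one another. The whole list's mean level ran from 0.02 to 0.60 on the infant and from -2.72 to -1.78 on the adult arrays at 48 h. Csf3r, the receptor for granulocyte colony-stimulating factor, did not pass at 48 h (gap 0.31 ± 0.19, adjusted p = 0.174). Lcn2, a granule protein that hepatocytes also make in the acute phase, read 2.87 and 2.37 in the infant males, 3.30 and 3.01 in the infant females, 4.33 and 8.74 in the adult males and 3.63 and 3.60 in the adult females, so that 1 adult male stood far above the other 7 arrays. The gap of 2.19 ± 1.03 did not pass (adjusted p = 0.0811).

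Most megakaryocyte and platelet transcripts were still higher in infants. All 16 were higher in infants at 0 h and 15 at 48 h, with a median of -3.56 and then -1.99, and the change was called for 8. Floored, 12 were higher in infants at 48 h (median -1.33 after -2.98) and 13 changes were called. Pf4, the platelet factor 4 chemokine, read 3.46 and 3.55 in the infant males, 3.90 and 3.62 in the infant females, -0.05 and 0.12 in the adult males and -0.34 and -0.68 in the adult females. The ages were well apart at 48 h, with a gap of -3.88 ± 0.14 (log2, SE, n = 4 per age; adjusted p = 2.81e-11), 14.7-fold, and a change of 0.96 ± 0.20 (adjusted p = 0.00587). Ppbp, another platelet chemokine, read 1.08, 0.79, 2.06 and 1.90 in infants and was below background in adults, a difference of at least 31.4-fold (adjusted p = 2.24e-08). The change of its gap did not pass (1.55 ± 0.60, adjusted p = 0.0863), but the floored change did (1.97 ± 0.33, adjusted p = 9.69e-04). Gp1ba, a subunit of the receptor for von Willebrand factor, was at least 3.37-fold higher in infants (adjusted p = 1.2e-09). Nfe2, a transcription factor of platelet and red-cell formation, was the 1 member that did not pass at 48 h, at -0.72 ± 0.40 (adjusted p = 0.135; well above background on 3 of 4 adult arrays) after -4.47 ± 0.40 at 0 h.

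More T and NK cell genes were still higher in infants than in adults at 48 h. Of 20 T and NK cell genes, 14 were higher in infants at 0 h and 12 at 48 h, 3 were higher in adults at 48 h, and the change was called for 6 (2 to 10 over the other settings). Gzma, a granzyme of NK and cytotoxic T cells, read 1.29 and 1.88 in the infant males, 1.75 and 1.68 in the infant females, -0.61 and -1.01 in the adult males and -0.46 and 0.19 in the adult females, with no overlap of the ages and a gap of -2.12 ± 0.20 (log2, SE, n = 4 per age; adjusted p = 5e-07). Gzmb, another granzyme, had a gap of -2.38 ± 0.24 (log2, SE, n = 4 per age; adjusted p = 9.9e-07), with 2 of 4 adult arrays well above background. Cd4 (the co-receptor of helper T cells) did not pass (-0.51 ± 0.23, adjusted p = 0.0712). The change was not called for Gzma (0.81 ± 0.28, adjusted p = 0.06) or Gzmb (0.37 ± 0.34, adjusted p = 0.472). Of 14 stem and progenitor genes, 10 were higher in infants at 48 h (5 floored, 4 with the slide as a fixed term). Myb, a transcription factor of immature blood cells, read 1.62, 0.63, 0.97 and 1.19 in infants at 0 h and was below background on all 8 arrays at 48 h. Cd34, shared by blood progenitors and vessel lining, kept its gap, at -3.06 ± 0.15 (log2, SE, n = 4 per age; adjusted p = 5.87e-10) with a change of -0.42 ± 0.21 (adjusted p = 0.186).

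**Figure D2:**
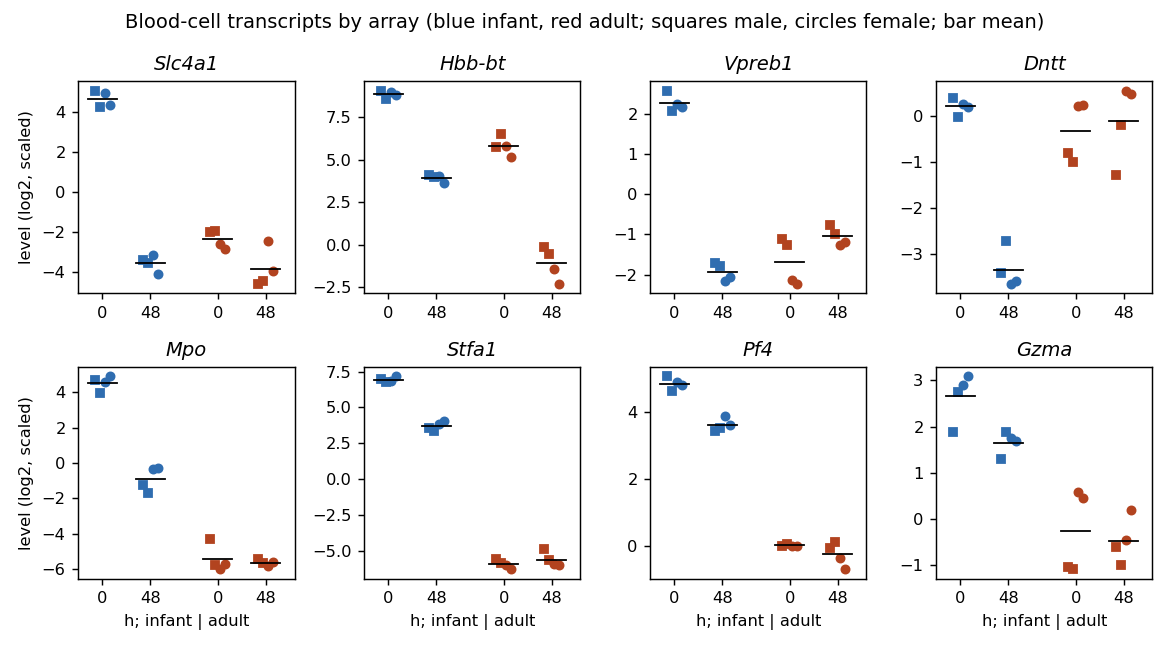
Level (log2, scaled to the 75th percentile) of 8 blood-cell transcripts on each array at 0 h and 48 h; blue, infants; red, adults; squares, males; circles, females; bar, mean of 4. Slc4a1 overlaps between the ages at 48 h and Vpreb1 and Dntt are higher in adults, whereas Hbb-bt, Mpo, Stfa1, Pf4 and Gzma are higher on all 4 infant arrays than on any adult array.

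The gaps of resident and stromal cells were still present at 48 h. All 21 stellate cell and fibroblast genes were tested, and 20 were higher in infants (median -2.23, against -1.86 at 0 h), with the change towards infants called for 5 (3 under median scaling) and towards adults for 0. Col1a1, the main chain of type I collagen, read 5.37 and 5.01 in the infant males, 4.25 and 5.26 in the infant females, -0.14 and 0.59 in the adult males and 0.15 and 0.30 in the adult females. Infants were 26.9-fold higher, with a gap of -4.75 ± 0.24 (log2, SE, n = 4 per age; adjusted p = 6.04e-10) and a change of -1.55 ± 0.34 (adjusted p = 0.00673), so its gap had widened. Col3a1, type III collagen, had a gap of -4.12 ± 0.15 (log2, SE, n = 4 per age; adjusted p = 2.26e-11) and a change of -1.14 ± 0.21 (adjusted p = 0.00283). Acta2, the smooth-muscle actin of activated stellate cells, read 3.81, 3.04, 1.82 and 3.25 in infants and -0.61, -0.55, -0.50 and -1.11 in adults, where infant female 1 was the lowest of the infants for both Col1a1 and Acta2. Dcn, the proteoglycan decorin, was the 1 member not called, with overlapping arrays and a gap of -0.10 ± 0.10 (adjusted p = 0.4).

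Of 17 endothelial genes, 16 were higher in infants at 48 h and 11 at 0 h. Lyve1, a hyaluronan receptor of sinusoidal and lymphatic vessels, had a gap of -1.71 ± 0.16 (log2, SE, n = 4 per age; adjusted p = 3.75e-07), and Tie1, a receptor kinase of vessel lining, one of -1.60 ± 0.15 (log2, SE, n = 4 per age; adjusted p = 6.21e-07). Of 20 macrophage and Kupffer cell genes, 13 were higher in infants and 0 in adults at 48 h, with the change called for 1, and the 13 ranged from 7 (slide as a fixed term) to 18 over the other settings. Marco, a scavenger receptor, read 6.29 and 6.42 in the infant males, 6.45 and 6.21 in the infant females, 2.81 and 2.94 in the adult males and 2.17 and 3.14 in the adult females and was 12-fold higher in infants, with a gap of -3.58 ± 0.23 (log2, SE, n = 4 per age; adjusted p = 9.54e-09). Mrc1, the mannose receptor, had a gap of -1.22 ± 0.16 (log2, SE, n = 4 per age; adjusted p = 1.1e-05). The Kupffer cell markers Clec4f, a lectin (-0.07 ± 0.10, adjusted p = 0.593), and Cd5l, a secreted scavenger protein (0.19 ± 0.15, adjusted p = 0.294), did not pass. Among 9 cholangiocyte genes 5 were higher in infants (3 to 7 over the other settings), among them the keratin Krt19, which read 1.57, 1.22, -0.29 and 0.67 in infants and -1.57, -1.63, -1.54 and -1.90 in adults (gap -2.45 ± 0.19, adjusted p = 6.83e-08). The mean level of the stellate list ran from 2.22 to 2.74 in infants and from 0.06 to 0.44 in adults, and that of the endothelial list from 2.46 to 2.60 and from 0.92 to 1.79.

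Mitotic transcripts moved apart. All 28 G2 and M phase genes tested (30 on the array) were higher in infants at both times, and the median gap went from -3.70 to -5.05. The gap had widened for 19 and narrowed for 0. Floored, 27 were higher in infants at both times, the median went from -3.12 to -4.33, and the gap had widened for 16 and narrowed for 1. In the deposited values, which test fewer genes, 17 were called higher in infants at 48 h, and members not tested there lower this count. At 48 h 13 of the 28 were below background on all 4 adult arrays and 0 on all 4 infant arrays. Birc5, the survivin subunit of the chromosomal passenger complex, was measured on all arrays, with means of 4.88 ± 0.27 in infants and 0.80 ± 0.89 in adults at 0 h (log2, SD, n = 4). At 48 h it read 5.42 and 5.52 in the infant males, 5.48 and 5.36 in the infant females, -0.37 and -0.09 in the adult males and -1.01 and -1.08 in the adult females. The infant arrays all lay above the adults, a gap of -6.08 ± 0.14 (log2, SE, n = 4 per age; adjusted p = 2.55e-13), or 67.8-fold. The change was -2.0 ± 0.20 (log2, SE, n = 4 per age; adjusted p = 2.78e-05). Mki67, the chromosome coat protein used as a proliferation mark, read 3.93 and 3.83 in the infant males, 3.84 and 3.71 in the infant females, -3.32 and -2.34 in the adult males and -2.68 and -2.56 in the adult females. With 3 of 4 adult arrays well above background infants were at least 91.8-fold higher (adjusted p = 4.27e-11), and the change was -1.37 ± 0.36 (adjusted p = 0.0172).

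Ccna2, the cyclin of S phase and G2, was well above background on 1 of 4 adult arrays at 48 h and at least 82.1-fold higher in infants, with a change of -2.50 ± 0.62 (adjusted p = 0.0135). Prc1, which bundles microtubules at the spindle midzone, read 2.72, 2.73, 2.76 and 2.67 in infants, was below background on all adult arrays and was at least 75-fold higher in infants (adjusted p = 1.66e-09). Ccnb1, the cyclin that drives entry into mitosis, read 2.01 and 2.17 in the infant males, 2.10 and 1.91 in the infant females, -2.77 and -3.05 in the adult males and -5.48 and -5.84 in the adult females, with 2 of 4 adult arrays well above background, and was at least 41.4-fold higher in infants (change -2.98 ± 0.37, adjusted p = 1.68e-04). Both adult males read above both adult females. These changes use adult readings below background. Floored, they were -1.65 ± 0.23 for Ccna2 and -2.02 ± 0.35 for Ccnb1 (adjusted p = 2.07e-04 and 0.0013).

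Promoters of 3 of these genes are shown because all members of the list were higher in infants and mitotic promoters are known for CCAAT boxes and for TTTGAA, the core of the cell-cycle homology region. They run from 250 bases before to 50 bases after the start of the gene, 5′ to 3′ on the strand of the gene, from RefSeq on GRCm38.p6, with every CCAAT or TTTGAA match on either strand in capitals (the opposite strand reads ATTGG or TTCAAA; the 2 motifs did not overlap).
Prc1 (chr7:80294201-80294500, plus strand): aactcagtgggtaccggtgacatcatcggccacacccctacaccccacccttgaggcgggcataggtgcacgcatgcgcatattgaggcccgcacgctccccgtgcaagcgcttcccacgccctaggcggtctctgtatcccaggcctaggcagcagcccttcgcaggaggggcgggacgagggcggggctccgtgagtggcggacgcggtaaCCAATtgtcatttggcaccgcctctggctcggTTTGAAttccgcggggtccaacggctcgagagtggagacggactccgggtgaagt
Mki67 (chr7:135716330-135716629, minus strand): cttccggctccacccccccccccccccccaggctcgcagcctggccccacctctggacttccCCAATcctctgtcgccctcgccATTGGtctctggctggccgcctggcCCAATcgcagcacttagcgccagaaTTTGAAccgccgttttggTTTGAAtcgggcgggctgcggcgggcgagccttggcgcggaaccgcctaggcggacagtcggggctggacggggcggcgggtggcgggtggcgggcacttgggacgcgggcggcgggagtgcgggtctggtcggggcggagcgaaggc
Ccnb1 (chr13:100786437-100786736, minus strand): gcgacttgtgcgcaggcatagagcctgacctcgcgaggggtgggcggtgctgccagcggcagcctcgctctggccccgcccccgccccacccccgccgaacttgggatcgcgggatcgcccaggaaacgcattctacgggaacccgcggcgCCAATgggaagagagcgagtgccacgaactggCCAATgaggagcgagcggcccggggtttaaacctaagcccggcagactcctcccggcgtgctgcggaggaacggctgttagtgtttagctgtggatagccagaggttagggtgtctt
In Prc1 the CCAAT begins 37 bases and the TTTGAA 5 bases before the start. Mki67 held 3 CCAAT matches, 1 of them on the opposite strand, and 2 TTTGAA matches, and Ccnb1 held 2 CCAAT matches and 0 TTTGAA matches. Promoters matched for 22 of the 28 genes, and CCAAT was present in 19 of them (86.4%) and TTTGAA in 16 (72.7%), against 37.9% and 18.1% of all 27025 promoters of the same length. Both were present in 15 of 22 (68.2%) and in 7.1% of all promoters. A match is a string of letters and not a measured binding site.

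Replication genes kept a gap of the same order at both times. Of 27 G1 and S phase genes, 25 were higher in infants at 48 h (median -1.85, against -1.83 at 0 h), and the gap had widened for 4 (0 under median scaling). Rrm2, the ribonucleotide reductase subunit that limits DNA precursor supply, read 4.46 and 4.38 in the infant males, 4.44 and 4.13 in the infant females, 0.07 and -0.07 in the adult males and 0.41 and 0.15 in the adult females, a gap of -4.22 ± 0.14 (log2, SE, n = 4 per age; adjusted p = 7.63e-12). Mcm5, a subunit of the replicative helicase, had a gap of -3.96 ± 0.23 (log2, SE, n = 4 per age; adjusted p = 2.76e-09) with a change of -0.20 ± 0.32 (adjusted p = 0.699). Uhrf1, which guides DNA methylation after replication, was at least 49.9-fold higher in infants, with 1 of 4 adult arrays well above background. Of 29 DNA repair genes, 16 were higher in infants and 9 in adults (4 with the well-above-background percentile). Lig1, the ligase of replication, was 5.46-fold higher in infants (gap -2.45 ± 0.11, adjusted p = 2.5e-10). Xrcc6, the Ku70 subunit of end joining, did not pass (0.02 ± 0.06, adjusted p = 0.752).

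**Figure D3:**
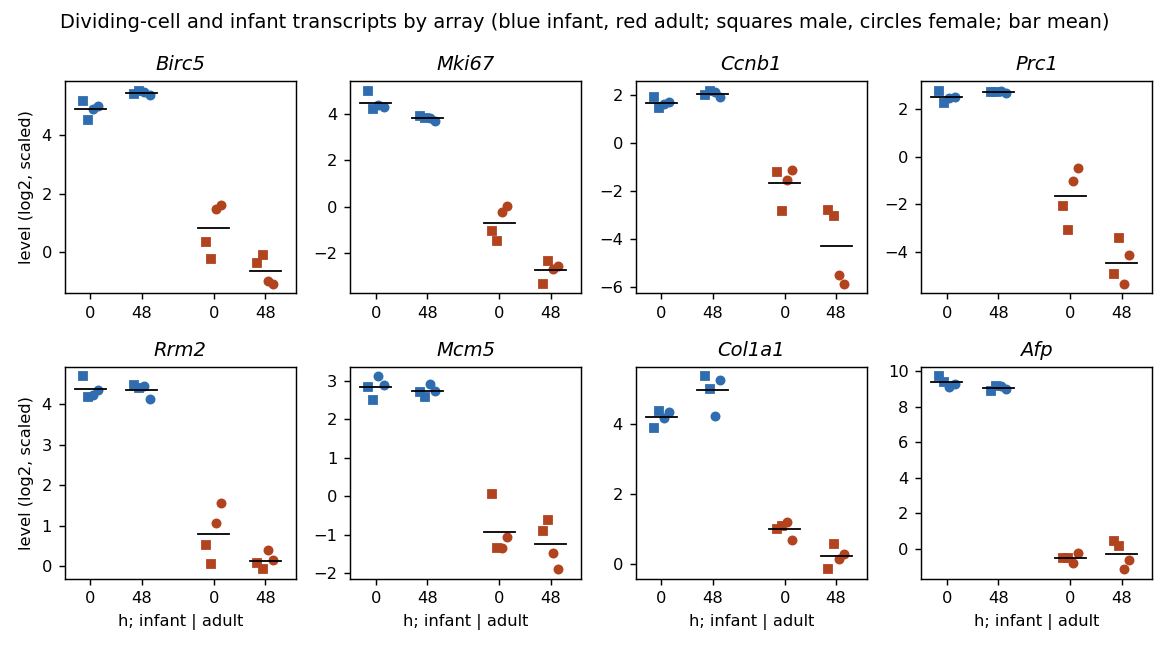
Level (log2, scaled to the 75th percentile) of dividing-cell and infant transcripts on each array at 0 h and 48 h; blue, infants; red, adults; squares, males; circles, females; bar, mean of 4. Birc5 reads 5.36 to 5.52 on the infant arrays and -1.08 to -0.09 on the adult arrays at 48 h, and the ages do not overlap for any of the 8 genes at either time.

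Fetal and imprinted transcripts kept gaps of many log2 units at 48 h. Of 17 fetal liver genes, 16 were higher in infants at both times, with medians of -4.42 and -4.68, and the change was called for 2 (5 floored). H19, an imprinted long non-coding RNA, read 9.44, 9.57, 9.75 and 9.54 in infants at 48 h and was below background in adults, at least 8729-fold higher (adjusted p = 3.12e-11). Igf2, the fetal growth factor expressed beside H19, read 4.80, 4.18, 5.65 and 5.76 and was at least 392-fold higher (adjusted p = 4.65e-12). Afp, alpha-fetoprotein, was measured on every array and read 8.91 and 9.17 in the infant males, 9.18 and 9.0 in the infant females, 0.47 and 0.15 in the adult males and -1.13 and -0.61 in the adult females. Its gap of -9.35 ± 0.30 (log2, SE, n = 4 per age; adjusted p = 6.8e-12), 651-fold, compares with -9.86 ± 0.30 at 0 h, and the change of 0.51 ± 0.42 did not pass (adjusted p = 0.425).

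Gpc3, a surface proteoglycan of fetal liver, was below background in adults and at least 111-fold higher in infants (adjusted p = 1.09e-11). Dlk1, an imprinted inhibitor of differentiation, was higher in infants by at least 49.9-fold (adjusted p = 9.1e-12). Of 17 imprinted network genes, 12 were higher in infants and 1 in adults. Peg3, an imprinted zinc-finger gene, narrowed its gap by the test (change 1.65 ± 0.54, adjusted p = 0.0454), a call lost in 16 of 29 other settings, and stayed at least 28.4-fold higher in infants. In the growth hormone and IGF list of 16 genes 6 were higher in infants (10 after quantile normalization) and 3 in adults. Igfbp1, a binding protein that restrains IGF, read 7.99, 9.0, 8.38 and 8.67 in infants and 4.62, 5.29, 4.39 and 5.95 in adults (gap -3.45 ± 0.45, adjusted p = 1.27e-05). Igfbp3, the main carrier of IGF in blood, had a gap of -2.65 ± 0.19 (adjusted p = 2.24e-08). Pnliprp1, a pancreatic lipase-related gene, read 3.83, 3.94, 3.93 and 3.97 in infants and was below background in adults, at least 173-fold higher (adjusted p = 9.74e-14).

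Adult hepatocyte functions were still higher in adults, with some gaps reduced. Of 29 maturation genes, 26 were higher in adults at 48 h (median 2.19, against 2.37 at 0 h), and the gap had narrowed for 10 (3 under median scaling) and widened for 0. Mup1, a major urinary protein that carries pheromones, read -1.92 and -1.90 in the infant males, -1.79 and -1.93 in the infant females, 10.17 and 10.44 in the adult males and 10.03 and 9.88 in the adult females. The gap was 12.02 ± 0.15 (log2, SE, n = 4 per age; adjusted p = 2.5e-16), 4143-fold, and the change was -1.71 ± 0.21 (adjusted p = 1.62e-04). Infants were below background at 0 h, so that change is read from the background level. Mup5 read 9.47, 9.63, 9.13 and 8.97 in adults and was below background in infants, at least 9859-fold higher (adjusted p = 8.67e-18). Major urinary protein genes are near-identical copies, so their probes cannot be taken as separate genes. Slco1a1, an organic anion transporter, read 4.57, 4.45, 3.32 and 3.16 in adults and was at least 229-fold higher (adjusted p = 2.51e-14).

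Core hepatocyte genes had small gaps. In the hepatocyte core list of 25, 18 were higher and 2 lower in adults, but these counts were 5 and 6 after quantile normalization, and 4 were higher with the slide as a fixed term, so their direction is not firm. Alb, serum albumin, read 9.35 and 9.77 in the infant males, 9.83 and 9.53 in the infant females, 10.08 and 10.36 in the adult males and 10.16 and 10.04 in the adult females, a gap of 0.54 ± 0.17 (log2, SE, n = 4 per age; adjusted p = 0.0119) that lost its call in 6 of 23 other settings. Hnf4a, a master regulator of hepatocytes, had a gap of 0.76 ± 0.08 (log2, SE, n = 4 per age; adjusted p = 2.23e-06), and Ttpa, which exports vitamin E, one of 1.48 ± 0.08 (log2, SE, n = 4 per age; adjusted p = 1.2e-09). Itih2, a protein that stabilizes extracellular matrix, went against the list, with 7.72, 7.85, 7.77 and 7.63 in infants, 6.42, 6.42, 6.64 and 6.59 in adults and a gap of -1.22 ± 0.05 (log2, SE, n = 4 per age; adjusted p = 1.41e-10).

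Many urea cycle and amino acid genes narrowed their gap. Of the 20 genes on that list, 19 were higher in adults at 0 h and 16 at 48 h (8 after quantile normalization), the median went from 1.46 to 0.58, and the gap had narrowed for 15 (4 under median scaling). Oat, the ornithine aminotransferase of hepatocytes around the central vein, had means of 2.85 ± 0.13 in infants and 6.62 ± 0.52 in adults at 0 h, and at 48 h it read 3.87 and 4.0 in the infant males, 3.77 and 3.62 in the infant females, 6.35 and 5.86 in the adult males and 6.59 and 6.65 in the adult females. The ages stayed apart, with a gap of 2.54 ± 0.11 (log2, SE, n = 4 per age; adjusted p = 1.93e-10) and a change of -1.23 ± 0.16 (adjusted p = 2.66e-04). Gls2, the liver glutaminase, no longer passed at 48 h (0.13 ± 0.10, adjusted p = 0.288) with a change of -0.93 ± 0.14 (log2, SE, n = 4 per age; adjusted p = 8.04e-04). Glul, glutamine synthetase of the same central hepatocytes, kept its gap at 1.69 ± 0.07 (adjusted p = 7.57e-11; change -0.28 ± 0.10, adjusted p = 0.0598).

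Lipid synthesis genes remained higher in adults. Of 19 fatty acid synthesis genes 14 were higher and 3 lower in adults. Scd1, the desaturase that makes oleate, read 1.63 and 1.64 in the infant males, 1.40 and 1.67 in the infant females, 6.59 and 6.94 in the adult males and 7.01 and 7.44 in the adult females, a 42.5-fold gap of 5.41 ± 0.20 (log2, SE, n = 4 per age; adjusted p = 2.21e-11) that had been 7.60 ± 0.20 at 0 h (change -2.19 ± 0.28, adjusted p = 2.12e-04). Thrsp, a regulator of lipogenesis, had a gap of 6.77 ± 0.25 (adjusted p = 2.74e-11). It was narrower than at 0 h (change -1.38 ± 0.35, adjusted p = 0.0158). Acacb, the mitochondrial acetyl-CoA carboxylase, had a gap of 4.57 ± 0.15 and a change that did not pass (0.46 ± 0.22, adjusted p = 0.157). Of 22 cholesterol synthesis genes 17 were higher (11 with the slide as a fixed term) and 0 lower in adults, against 12 at 0 h. Insig1, a sterol sensor, and Idi1, an isomerase of the pathway, had gaps of 2.13 ± 0.15 and 1.90 ± 0.19 (adjusted p = 3.07e-08 and 1.05e-06).

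Of 20 bile acid genes, 14 were higher and 4 lower in adults (2 lower without the sex term), and the change towards infants was called for 8 (1 under median scaling and 0 without the sex term). Cyp27a1, a sterol 27-hydroxylase, read 0.03, 0.54, 0.25 and 0.40 in infants and 3.51, 3.97, 3.78 and 4.10 in adults (gap 3.53 ± 0.20, adjusted p = 2.26e-09). Baat, which joins bile acids to taurine, had a gap of 3.59 ± 0.22 (adjusted p = 4.7e-09). Cyp7a1, the rate-limiting enzyme of bile acid synthesis, read 2.29 and 2.46 in the infant males, 2.64 and 2.72 in the infant females, 3.56 and 3.61 in the adult males and 2.32 and 3.99 in the adult females, with 1 adult female inside the infant range. Its gap of 0.84 ± 0.40 did not pass (adjusted p = 0.0838). Its change of -1.71 ± 0.56 was near the threshold (adjusted p = 0.0484) and was lost in 20 of 30 other settings. Of 30 xenobiotic genes, 23 were higher and 2 lower in adults, and Aldh1a1, a retinal dehydrogenase, had a gap of 5.25 ± 0.08 (adjusted p = 2.45e-15) after 6.37 ± 0.08 at 0 h. Fatty acid oxidation was divided, with 8 of 25 genes higher and 8 lower, but 4 were higher and 13 lower after quantile normalization. Gluconeogenesis and glycolysis were divided too, with 6 of 20 higher and 6 lower, and 4 and 11 after quantile normalization. Pkm, the pyruvate kinase of fetal and dividing cells, was higher in infants (-1.80 ± 0.08, adjusted p = 2.32e-10) with a narrowed gap (change 0.60 ± 0.12, adjusted p = 0.00362). Pck1, the entry enzyme of gluconeogenesis, did not pass (-0.26 ± 0.12, adjusted p = 0.0664).

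The hepcidin genes narrowed their gap far more than most hepatocyte genes described here. Hamp, the hormone that lowers blood iron by closing ferroportin, read 0.69, 1.03, -1.47 and -0.41 on the infant arrays at 0 h and 7.67, 7.25, 8.0 and 7.24 on the adult arrays. At 48 h it read 5.63 and 5.05 in the infant males, 6.96 and 6.71 in the infant females, 8.61 and 8.63 in the adult males and 8.67 and 8.62 in the adult females. The adult arrays still all stood above the infant arrays, but the gap was 2.54 ± 0.28 (log2, SE, n = 4 per age; adjusted p = 2.35e-06) in place of 7.58 ± 0.28, a change of -5.03 ± 0.40 (log2, SE, n = 4 per age; adjusted p = 4.11e-06). Hamp2, another hepcidin gene of the mouse, read 6.42 and 6.10 in the infant males, 7.07 and 6.55 in the infant females, 7.08 and 4.56 in the adult males and 8.52 and 8.61 in the adult females at 48 h, with the ages overlapping and the adult females highest. Its gap of 0.66 ± 0.46 (log2, SE, n = 4 per age; adjusted p = 0.238) did not pass, after one of 7.40 ± 0.46 at 0 h, and the change was -6.74 ± 0.65 (adjusted p = 2.2e-05). Hamp and Hamp2 are close copies, and cross-reading between their probes was not tested.

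Of 22 iron handling genes in all, 11 were higher and 5 lower in adults, but 5 were higher with the well-above-background percentile and 7 lower after quantile normalization. Atoh8, a transcription factor of the hepcidin pathway, had narrowed its gap to 1.29 ± 0.12 (change -0.92 ± 0.17, adjusted p = 0.00254). Slc40a1, the iron exporter ferroportin, had a gap of -1.28 ± 0.07 and its gap had widened (change -0.51 ± 0.10, adjusted p = 0.00542). Hmox1, which frees iron from heme, had a gap of -1.95 ± 0.11 (adjusted p = 2.87e-09) with no called change (0.19 ± 0.16, adjusted p = 0.441).

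Acute-phase genes were higher in adults. Of 26, 15 were higher and 0 lower (10 after quantile normalization, 12 without adult male 2), and the median gap was 0.86. Saa1, serum amyloid A, read 2.52 and 2.75 in the infant males, 2.95 and 2.42 in the infant females, 9.16 and 10.06 in the adult males and 9.43 and 9.29 in the adult females, a gap of 6.82 ± 0.39 (log2, SE, n = 4 per age; adjusted p = 2.6e-09) with no called change (1.30 ± 0.55, adjusted p = 0.116). Orm1, the orosomucoid transport protein, read 7.44, 8.40, 7.39 and 7.32 on the adult arrays and -1.88, -2.40, -0.78 and -2.09 on the infant arrays (gap 9.42 ± 0.38, adjusted p = 6.39e-11). Orm2, a close copy whose probe may share its signal, had a gap of 9.09 ± 0.40 after 10.98 ± 0.40 at 0 h (change -1.89 ± 0.56, adjusted p = 0.0311). Adult male 2 was the highest array for Saa1, Orm1 and Lcn2, and the whole acute-phase list had a mean of 6.29 to 7.38 on the adult arrays and 4.24 to 4.62 on the infant arrays.

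**Figure D4:**
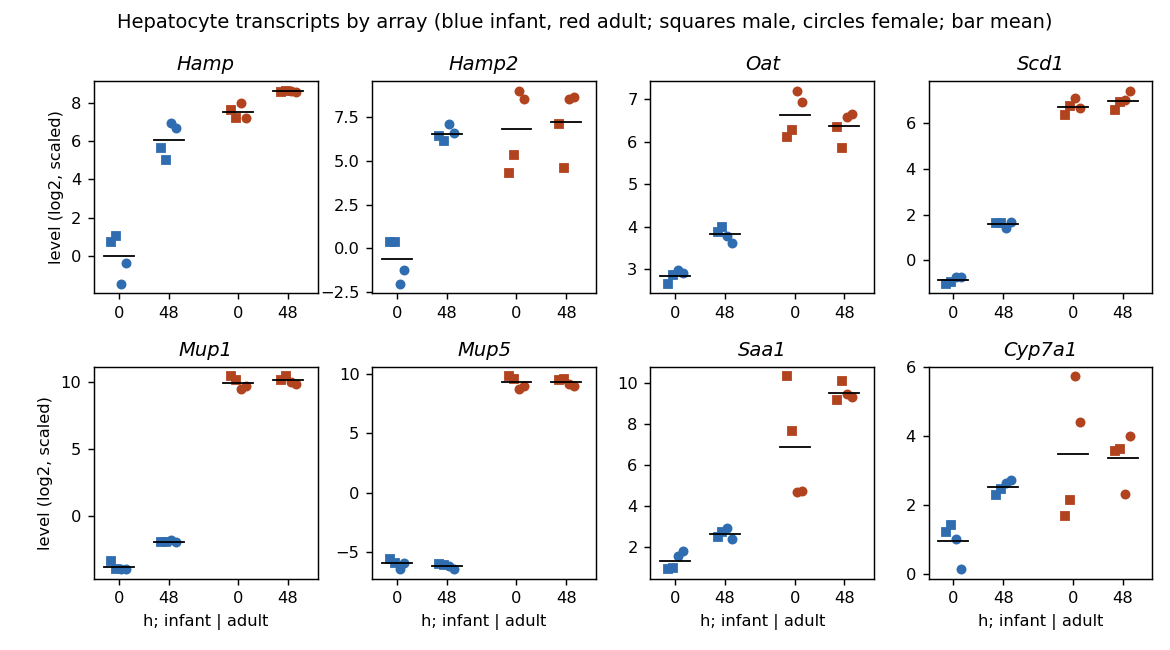
Level (log2, scaled to the 75th percentile) of hepatocyte transcripts on each array at 0 h and 48 h; blue, infants; red, adults; squares, males; circles, females; bar, mean of 4. The infant levels of Hamp and Hamp2 are at most 1.03 at 0 h and between 5.05 and 7.07 at 48 h, whereas the infant levels of Mup1 are at most -1.79 and those of Mup5 at most -6.03 at 48 h.

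The p53 targets, which respond to radiation, did not lean to one age. Of 34, 15 were higher and 9 lower in adults at 48 h, with a median of 0.11 against 0.17 for all genes. The 15 were 8 with the slide as a fixed term, and the 9 were 15 with the well-above-background percentile. Cdkn1a, the p21 inhibitor of cell cycle kinases, read 2.71 and 3.17 in the infant males, 2.57 and 2.60 in the infant females, 2.52 and 2.02 in the adult males and 2.39 and 2.06 in the adult females. Its gap of -0.52 ± 0.32 (log2, SE, n = 4 per age; adjusted p = 0.18) did not pass, and the change from -2.55 ± 0.32 at 0 h did (2.04 ± 0.45, adjusted p = 0.00743). A dimmer probe for it gave a gap of -1.26 at 48 h. Phlda3, a p53-induced inhibitor of AKT, read 3.17 and 3.09 in the infant males, 3.18 and 3.17 in the infant females, 2.70 and 2.28 in the adult males and 2.75 and 2.66 in the adult females, lower on all 4 adult arrays. Its gap did not pass (-0.56 ± 0.33, adjusted p = 0.162). Gdf15, a stress cytokine, and Ephx1, an epoxide hydrolase, were higher in adults, at 1.69 ± 0.37 and 1.34 ± 0.10 (adjusted p = 0.0012 and 4.09e-08). Btg2, an inhibitor of proliferation, was higher in infants (-1.45 ± 0.20, adjusted p = 1.67e-05).

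Of 28 interferon-stimulated genes, 15 were higher (8 with the slide as a fixed term) and 2 lower in adults, a pattern already present at 0 h (16 and 4), and the change was called for 3. Oasl1, of the oligoadenylate synthetase-like family, had a gap of 2.10 ± 0.22 and Bst2, the tetherin that holds budding virus, one of 1.64 ± 0.08 (adjusted p = 1.26e-06 and 5.33e-10). Ifit2, which binds viral RNA, was higher in infants (-1.31 ± 0.22, adjusted p = 1.31e-04), and Usp18, a brake on interferon signalling, did not pass (0.07 ± 0.22, adjusted p = 0.813). Of 18 genes of the unfolded protein and stress response, 10 were higher and 1 lower in adults. Hspb1, a small heat shock protein, was 32.4-fold higher, Trib3, a pseudokinase of the stress response, 6.25-fold and Chac1, which degrades glutathione, 7.50-fold (adjusted p = 6.81e-08, 1.41e-06 and 7.64e-07). The gap of Chac1 had narrowed (change -2.71 ± 0.41, adjusted p = 7.04e-04). Of 15 circadian clock genes, 6 were higher and 5 lower in adults (1 lower with the slide as a fixed term). Nr1d1, a clock repressor, had a gap of 3.09 ± 0.32 (adjusted p = 1.15e-06), and Per1, another repressor, one of -1.82 ± 0.47 (adjusted p = 0.00366). Dbp, a clock output factor, did not pass (0.48 ± 0.27, adjusted p = 0.144). The hour of sampling is not given in the sources used here. Ntrk2, a neurotrophin receptor, went from a gap of -1.09 ± 0.28 at 0 h to -4.43 ± 0.28 at 48 h, a change of -3.34 ± 0.40 (log2, SE, n = 4 per age; adjusted p = 1.52e-04). At 48 h it read 3.02, 3.14, 2.94 and 2.93 in infants and -2.67, -2.03, 0.06 and -1.05 in adults.

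Part of the age gap differed between the sexes. The male gap differed from the female gap at 48 h for 1829 genes (7.91%), more positive in males for 1173 (5.07%) and more negative for 656 (2.84%). Within each sex the ages lay on different slides at 48 h, and no slide term was fitted for this difference. The positive share of 64.1% was 47.8% after quantile normalization, 34.8% under median scaling and 36.5% with the well-above-background percentile. Of 22 male-biased adult genes, all 22 were higher in adults and the male gap was the larger for 20. Cyp4a12a, an arachidonate hydroxylase induced by androgen, read 6.73, 6.57, 1.44 and 0.06 in adults, males first, and was below background in infants. Adults were at least 204-fold higher, and the male gap exceeded the female gap by 5.65 ± 0.55 floored (log2, SE, 2 arrays per sex and age; adjusted p = 2.68e-05). Elovl3, a fatty acid elongase, read 5.30, 4.86, -0.25 and -0.98 in adults and was below background in infants (floored sex difference 5.45 ± 0.51, adjusted p = 2.14e-05). Cyp7b1, an oxysterol hydroxylase, had gaps of 8.16 ± 0.18 in males and 5.17 ± 0.18 in females (sex difference 2.99 ± 0.25, adjusted p = 1.4e-05). Mup20, the pheromone darcin, had gaps of 12.54 ± 0.26 and 10.0 ± 0.26 (sex difference 2.54 ± 0.37, adjusted p = 0.00148).

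For female-biased adult genes the averaged gap mixed a large gap in males with a smaller or opposite one in females. Of 25, 17 were lower and 5 higher in adults when the sexes were averaged, and the sex difference of the gap was negative for 22, floored or not. Sult2a1, a sulfotransferase of bile acids and steroids, read 7.77 and 8.04 in the infant males, 8.09 and 7.88 in the infant females, -5.20 and -5.43 in the adult males and 3.05 and 4.24 in the adult females. Infants of both sexes stood high, adult males were below background and adult females lay between. The floored gaps were -11.20 ± 0.61 in males and -4.33 ± 0.61 in females (floored sex difference -6.87 ± 0.86, adjusted p = 3.84e-04). Hao2, a hydroxy acid oxidase, showed the same order, at 4.56 and 4.73 in the infant males, 4.68 and 4.53 in the infant females, -5.21 and -5.31 in the adult males and 1.47 and 0.90 in the adult females. For Cyp2b13, a female-specific cytochrome P450, adult females read 6.31 and 5.81, above all infants, and adult males were below background. The floored gaps were -6.54 ± 0.29 in males and 2.11 ± 0.29 in females (floored sex difference -8.65 ± 0.41, adjusted p = 1.32e-08). Without the sex term, which leaves each averaged gap as it is and puts the difference between the sexes into the residual spread, 5 of the 25 were called lower and 2 higher.

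Sult3a1, another sulfotransferase, was measured in adult females alone, at 3.89 and 4.53 (floored sex difference -7.76 ± 0.49, adjusted p = 3.39e-07). A1bg, a secreted immunoglobulin-like protein, read -2.89 and -3.37 in the infant males, -2.91 and -2.94 in the infant females, -5.30 and -5.56 in the adult males and 5.12 and 3.44 in the adult females (floored sex difference -7.38 ± 0.69, adjusted p = 2.02e-05). Cyp4a14, a fatty acid hydroxylase, read 6.94 and 7.26 in the infant males, 6.83 and 6.73 in the infant females, 1.29 and -1.63 in the adult males and 7.25 and 7.14 in the adult females, so that adult females stood with the infants and adult males far below (sex difference -7.69 ± 0.98, adjusted p = 6.49e-04). Tff3, a trefoil peptide, and Asns, asparagine synthetase, went the other way. Tff3 read 1.11 and 1.54 in the infant males, 1.29 and 1.62 in the infant females, 3.06 and 3.82 in the adult males and -2.51 and -2.56 in the adult females, and its averaged gap did not pass (-0.94 ± 0.43, adjusted p = 0.074). The sex difference did (6.11 ± 0.86, adjusted p = 0.00122). Asns read 3.22 and 3.56 in the infant males, 3.52 and 3.36 in the infant females, 3.03 and 3.39 in the adult males and -1.05 and -1.13 in the adult females, and the adult females alone were low (sex difference 4.36 ± 0.42, adjusted p = 4.68e-05). The count of sex differences was 282 under median scaling and 147 when only the 48 h arrays were fitted, a fit with 2 arrays of each sex and age.

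**Figure D5:**
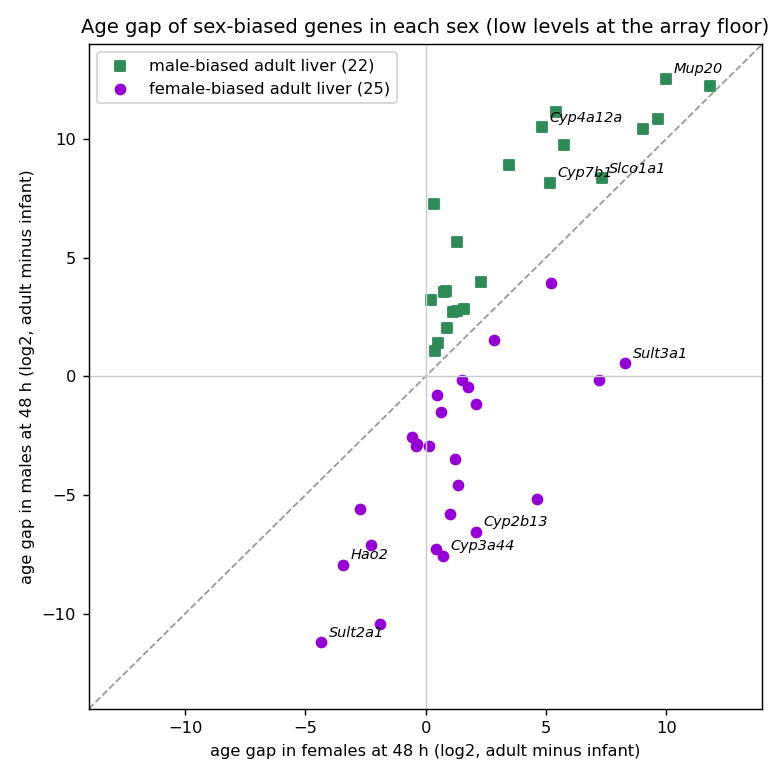
Floored age gap at 48 h (log2, adult minus infant) in females (horizontal axis) and in males (vertical axis) for the 22 male-biased and 25 female-biased adult liver genes tested; dashed line, equal gaps. Of the male-biased genes (green squares) 20 lie significantly above the line, as for Mup20 at 12.54 in males and 10.0 in females, and 22 female-biased genes (purple circles) lie significantly below it, as for Sult2a1 at -11.20 and -4.33.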

How the data were processed

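Liver RNA of 24 mice was hybridised to single-colour Agilent arrays. The deposited scanner files give a processed intensity per spot, background-subtracted by the authors with Agilent Feature Extraction (10.5.1.1 in the file headers, and 11.5.1 in the submitters' processing notes). The value table deposited by the authors holds log2 values centred on each probe's median, as a comparison with the scanner intensity showed (correlation 0.976 to 0.990 per array), and served as an alternative. Its array medians ran from -0.16 to 0.18, and its first scaling step is not given in the sources used here.

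Control spots were left out and 59305 spots were averaged to 55681 probes, of which 94 were missing on an array and were dropped. No spot was saturated (0). The log2 intensity minus each array's 75th percentile was taken for probes flagged well above background on 4 or more of the 24 arrays, with the brightest probe per gene. Symbols came from the RefSeq table of GRCm38.p6 (27987 of 29753 accessions matched, 94.1%), otherwise from the array design (mm9). limma 3.58.1 in R 4.3.3 fitted the 12 means of age, time and sex to all 24 arrays, with adjusted p-values by Benjamini-Hochberg over 23115 genes and a threshold of 0.05. The script was tested on simulated data.

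A gene below background on all or some arrays of its dimmer group has a bound ("at least"): the bright mean over, per array, the higher of the probe's own level and the lowest signal well above background. Unless called floored, an adjusted p printed beside a bound is that of the fitted gap or change, which uses the readings below background. Standard errors and adjusted p-values measure the spread between mice of the same age, time and sex, pooled over all arrays fitted. In the main fit these include mice outside the comparison, so the spread is not that of the compared mice alone. Alternatives covered scaling (quantile, median, percentile over probes well above background), normexp with an offset of 50 on spot medians, no filter, other array sets, the sex term, slides, the replicate block and leaving out each array. One alternative, the floored values, was chosen after seeing the data.

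Named genes were fixed markers, the largest called gaps, changes and sex differences, and up to 4 called and 2 uncalled members of each list. Those described were picked from them after their values were seen. Genes with probes of opposite sign were left out. The comparison and the lists were chosen with earlier results of these data known.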

Additional observations from a re-analysis of the deposited data

Results flagged for a closer look

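The age gap differed between 48 h and 0 h for 4467 genes and between males and females at 48 h for 1829 genes, by limma's test of the difference. The values below are those differences in log2 units for the genes named in the text, positive where the adult side gained. Explanations were not tested. Where a group lies below background these fitted values use its readings there and are neither exact sizes nor bounds. Floored values, with levels raised to the lowest signal well above background of the array, follow the lists.

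Blood-cell genes whose gap moved towards adults were Slc4a1 (6.71), Rhd (8.71), Kel (8.0), Icam4 (6.54), Gata1 (4.08), Tspo2 (3.14) and Vpreb1 (4.83). Others were Dntt (3.77), Cd79b (1.43), Vpreb3 (4.55), Igll1 (6.32), Stfa1 (3.57), Ltf (3.59) and Mpo (5.25). With them came Pf4 (0.96), Gp1ba (2.10), Nfe2 (3.76) and Myb (4.70). The globins moved the other way, with Hbb-bt (-2.0) and Hba-a1 (-1.78). Peg3, Pkm, Asns, Cdkn1a and Btg2 also moved towards adults, with Peg3 (1.65), Pkm (0.60), Asns (1.26), Cdkn1a (2.04) and Btg2 (0.84).

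Infant-high genes whose gap widened were Col1a1 (-1.55), Col3a1 (-1.14), Krt19 (-0.87), Ccna2 (-2.50), Prc1 (-3.0), Mki67 (-1.37) and Ccnb1 (-2.98). The same held for Birc5 (-2.0), Rrm2 (-0.66), Igfbp3 (-0.90), Pnliprp1 (-1.20), Ntrk2 (-3.34) and Slc40a1 (-0.51). Adult-high genes at 0 h whose gap narrowed were Mup1 (-1.71), Mup20 (-0.98), Cyp7b1 (-0.62), Cyp27a1 (-1.07), Cyp7a1 (-1.71), Aldh1a1 (-1.12) and Oat (-1.23). Further ones were Gls2 (-0.93), Scd1 (-2.19), Thrsp (-1.38), Orm2 (-1.89), Hamp (-5.03), Hamp2 (-6.74) and Atoh8 (-0.92). Others were Chac1 (-2.71), Nr1d1 (-1.53) and Dbp (-1.74). The sex-biased genes Hao2 and Cyp2b13 moved by Hao2 (-0.89) and Cyp2b13 (-1.07).

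The male gap exceeded the female gap for Hba-a1 (1.66), Ccnb1 (2.67), Mup20 (2.54), Cyp7b1 (2.99), Aldh1a1 (0.75), Pck1 (0.83) and Elovl3 (5.43). With them came Cyp4a12a (5.49), Tff3 (6.11), Asns (4.36) and Dbp (2.44). The male gap lay below the female gap for Dntt (-1.81), Cd34 (-1.14), Ttpa (-0.58), Sult2a1 (-8.88), Hao2 (-6.48), Cyp2b13 (-10.78) and Sult3a1 (-9.80). The same held for Cyp4a14 (-7.69), A1bg (-9.52) and Ntrk2 (-2.0).

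Among the changes of the gap listed above, the floored values that moved by over 0.5 were Slc4a1 (7.37), Rhd (6.64), Kel (5.74), Icam4 (4.57), Igll1 (4.05), Ccna2 (-1.65), Prc1 (-2.07) and Ccnb1 (-2.02), all still called, and Pnliprp1 (-0.18), no longer called. Among changes not listed, Gpc3 went from -0.74 to 0.59 floored and was then called (adjusted p = 0.0126). A1bg (-1.01 to 0.81) and H19 (-0.88 to -0.28) moved by over 0.5 without a call. Among the sex differences listed above, the floored values that moved by over 0.5 were Sult2a1 (-6.87), Hao2 (-4.52), Cyp2b13 (-8.65), Sult3a1 (-7.76) and A1bg (-7.38), all still called, and Ccnb1 (0.75), no longer called. Rhd and Kel were below background on every array at 48 h.

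At 48 h 14 of 228 gene and age groups of 4 held an array standing apart from the other 3 by Dixon's criterion, which chance gives in about 1 in 20 groups. For infant male 2 the apart levels were Cd79b (-0.48), Vpreb3 (-1.94), Ttpa (3.31), Cyp7b1 (0.22), Pck1 (8.47), A1bg (-3.37) and Phlda3 (3.09). For adult male 2 the apart levels were Lcn2 (8.74), Orm1 (8.40) and Orm2 (9.33). For infant female 1 the apart levels were Scd1 (1.40) and Bst2 (5.16). For adult male 1 the apart levels were Pkm (1.08) and Ephx1 (8.84).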

How the results depend on the processing

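Counts moved with the scaling, the filter, the slide, the sex term and the arrays fitted, and the cause was not tested. With the 75th percentile over probes well above background, 5239 genes were higher and 7883 lower in adults at 48 h, and 6437 and 8838 at 0 h. The change was then called towards adults for 2288 and towards infants for 1692, and the sex difference was positive for 578 and negative for 1007. With slide as a fixed term 9210 genes were called at 48 h (5784 higher) and 9594 at 0 h (6311 higher, 3283 lower). For the change, median scaling called 1562 (394 towards infants), no sex term 1392 (623 and 769), slide as a random block 2530 (893 and 1637; block correlation 0.234). No filter gave 1978 towards infants and the arrays of 0 h and 48 h alone 1947. For the sex difference, quantile normalization called 1205 (576 positive), median scaling 282 (98 and 184) and normexp 759 positive. No filter called 867 (526 and 341) and the 48 h arrays alone 147 (80 and 67). Leaving out each array in turn gave 600 to 1475 sex differences (326 to 808 positive, 274 to 667 negative). The replicate block called 14170 genes at 48 h, 16632 at 0 h, 4820 changes and 2022 sex differences. The difference between the numbered replicates of a sex, compared between groups of age and time, correlated across genes at -0.204 to 0.157. The numbers were therefore not taken to pair the mice. The slide with both ages (adult males, infant females) called 11579, and the deposited values of the authors gave 12763 of 21123 genes.

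Of 114 named genes, 91 were called at 48 h, 81 of them in every setting, and 33 of 57 changes and 11 of 21 sex differences kept their call in every setting run. No setting with a slide term was run for the sex differences. Of the 23 not called at 48 h, 20 gained a call or took the other sign with one in some setting, among them Pck1 in 8 of 23 settings, Cd4 in 5, Cdkn1a in 4, Dbp, Phlda3, Tff3 and Vpreb3 in 3 and Clec4f, Cyp7a1, Dcn and Hamp2 in 2. The 10 gaps at 48 h that lost their call in some setting were those of A1bg, Alb, Asns, Cyp2b13, Cyp4a14, Gdf15, Myb, Per1, Sult3a1 and Vpreb1, and of these Alb alone lost it when an array was left out (infant male 1 or infant female 2). The changes of Btg2, Cyp7a1, Hao2, Cyp2b13, Cyp7b1, Igfbp3, Krt19, Nr1d1, Orm2, Peg3 and Rrm2, and the sex differences of Aldh1a1, Cd34, Dbp, Dntt, Hba-a1, Ntrk2, Pck1 and Ttpa, lost their call without some single arrays. Gaps at 48 h that took the other sign, with a call in the main fit or in the other setting, were Xrcc6 at -0.31 (quantile normalization) and -0.25 (the well-above-background percentile), Gls2 at -0.23 (quantile normalization), Myb at 0.27 (floored, with every array below background), and, within the shared slide, Tff3 at 1.99 and A1bg at -2.51. Gaps called in neither, as for Slc4a1 at -0.30 and 0.35 floored, are not listed. Among changes called in the main fit, the sign turned for Hao2 at 0.14 and Cyp2b13 at 1.84 (slide fixed) and 0.73 (slide random). Genes below background on an age's 4 arrays have a bound only, and 4 arrays per age limit the precision.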
